A study of Mus musculus with 289 samples.

Results

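The basal and bulge-like cells were 96 of the 274 kept cells among the tomato-positive progeny of Lrig1 stem cells of mouse tail epidermis. Each cell was scored on 4 short marker lists, as the mean z-score over the kept cells of log2(CPM + 1), where CPM is the count of a gene scaled to a common total of the cell's counts without mitochondrial genes, and it joined the list of its highest score. The members were chosen by these levels and scored highest on Krt15, Krt5, Krt14, Postn, Lhx2 and Cd34. Of the other kept cells, 94 joined a suprabasal and upper follicle list, 44 a sebaceous list and 40 a cycling list. The values of all these cells chose the members, so every difference between members and other cells is given below as a description, with no test.

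Single cells came from mice of a mixed CBA C57BL/6 strain with an Lrig1-EGFP-ires-CreERT2 allele and a Rosa26-fl/STOP/fl-tdTomato reporter, were labelled by 1 topical hydroxytamoxifen application on the tail and were sorted for tomato at the labelled time t0. All animals shared this genotype and, between labelling and sorting, received vehicle (its label carries the letters AC) or PRT4165, a small molecule inhibitor of the ubiquitin ligases Ring1 and Rnf2 of Polycomb repressive complex 1. The 289 deposited cells came from 4 plates, 2 of each treatment, and each plate was used as 1 replicate. Because no plate mixed treatments, a difference between plates of 1 replicate and a treatment difference cannot be told apart, and nothing in the labels says how many animals a plate held, how old they were or whether plates of 1 treatment came from separate animals, so that p-values measure the spread between plates. Cre was driven by the Lrig1 locus, so the tomato mark followed cells that expressed Lrig1 at labelling and all their descendants.

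Basal keratinocytes sit on the basement membrane, carry the keratin pair Krt5 and Krt14 and are anchored through integrins, Col17a1 and laminins in hemidesmosomes. The bulge is the lower permanent part of the hair follicle, where quiescent stem cells carry Cd34, Krt15 and the transcription factor Lhx2. Lrig1 marks stem cells higher in the follicle, in the junctional zone, whose descendants supply the infundibulum, the sebaceous gland and, after injury, the epidermis. Postn encodes periostin, a secreted matrix protein that the study also took as a marker of the infundibulum.

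The sequences shown here are those just before a RefSeq start of the keratin pair Krt5 and Krt14, which defines the basal state, and of Crip1. Crip1 was the gene outside the marker lists that was most raised in the members. The sequences are the 250 bases upstream of the RefSeq start on GRCm38.p6, 5′ to 3′ on the gene's own strand. None of them overlapped an annotated exon. The Krt5 window was chr15:101712906-101713155 on the minus strand, the Krt14 window chr11:100206031-100206280 on the minus strand and the Crip1 window chr12:113151762-113152011 on the plus strand. The Krt14 window lay inside the annotated gene (chr11:100203162-100207548), downstream of its outermost start, so it was not the sequence before that start. The Crip1 window also lay inside its annotated gene (chr12:113146316-113153879). Capitals mark GCCNNNGGC, a palindrome that AP-2 factors bind, searched on both strands beside the TATA box TATAAA and the AP-1 site TGANTCA.
Krt5: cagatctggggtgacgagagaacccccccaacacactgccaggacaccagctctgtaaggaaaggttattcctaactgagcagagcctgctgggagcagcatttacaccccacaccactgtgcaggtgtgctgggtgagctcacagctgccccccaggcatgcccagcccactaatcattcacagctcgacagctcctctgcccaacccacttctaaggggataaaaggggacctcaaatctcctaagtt
Krt14: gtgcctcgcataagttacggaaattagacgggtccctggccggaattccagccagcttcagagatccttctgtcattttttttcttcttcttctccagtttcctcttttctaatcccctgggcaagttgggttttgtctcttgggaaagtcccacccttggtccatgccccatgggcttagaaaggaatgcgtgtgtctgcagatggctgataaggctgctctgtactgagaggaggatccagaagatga
Crip1: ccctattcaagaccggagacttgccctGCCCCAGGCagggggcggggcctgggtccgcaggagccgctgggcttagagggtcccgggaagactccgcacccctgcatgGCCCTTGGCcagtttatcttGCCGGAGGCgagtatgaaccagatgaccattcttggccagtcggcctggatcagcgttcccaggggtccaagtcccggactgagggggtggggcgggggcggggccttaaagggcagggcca
The Crip1 window held GCCNNNGGC 3 times, and the Krt5 and Krt14 windows held none of the 3 motifs. For Krt14 this does not cover the bases before the outermost start of the gene. Over 32851 RefSeq promoters of mouse, 13.7% of such windows held GCCNNNGGC, 12.4% held TATAAA and 6.75% held TGANTCA. A match is a run of letters and says nothing of binding.

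Of the markers that chose the members, the keratins were detected in nearly all members, and Cd34 and Lhx2 in only some of them. Since these genes chose the members, the counts describe the class and do not test its name. Krt15 and Krt5 had counts in all 96 members. Krt14 had a count in 93 of them. All 3 of these keratins were present together in 93 members and in 90 other kept cells (50.6%). Cd34, the surface marker by which bulge stem cells are sorted, had a count in 30 members (31.2%), and Lhx2, which maintains the quiescent state of the bulge, in 55 (57.3%). Cd34 and Lhx2 occurred together in 19 members, Lhx2 without Cd34 in 36, Cd34 without Lhx2 in 11 and neither in 30. Postn had counts in 80 members, and 25 members carried Postn with no count of Cd34 or Lhx2. All 6 markers were present in 18 members and in 2 other cells. A gene without a count in a cell may have been missed by the depth of that cell, so these numbers limit cells with a count and not cells that express the gene.

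Among single members, the level of Postn varied most, with an SD of 4.05 over cells on the log2(CPM + 1) scale. The SD was 3.999 for Lhx2, 3.03 for Cd34, 2.73 for Krt14, 1.88 for Krt15 and 1.18 for Krt5. The mean log2(CPM + 1) of Krt15 in the members was 11.62 and 11.32 on vehicle replicates 1 and 2, and 11.26 and 11.40 on PRT4165 replicates 1 and 2. Its range over single members was 3.51 to 14.38 with a median of 11.75. In the other cells of the same plates, in that order, the mean was 3.71, 2.76, 6.22 and 7.55. A high Krt15 level was part of what made a cell a member, so a like level over the plates is no result. The other cells carried more Krt15 on the PRT4165 plates than on the vehicle plates. The mean level of Krt15 was 8.33 in cycling cells, 6.66 in sebaceous cells and 3.79 in suprabasal and upper follicle cells. Cycling and sebaceous cells together made up a larger share of the PRT4165 plates, and their part in the Krt15 level of the other cells was not tested.

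Krt5 had a mean of 10.05, 10.03, 9.71 and 9.71 in the members of vehicle replicates 1 and 2 and PRT4165 replicates 1 and 2, against 3.12, 4.05, 4.52 and 5.61 in the other cells. Krt14 was the least selective marker. Its mean over the members was 10.38, the same as in the sebaceous cells (10.38), and its difference from the other cells on a plate was between 0.62 and 2.55. Postn had a mean of 7.28, 8.63, 7.48 and 7.92 in the members of the 4 plates and of 1.89 to 4.20 in the other cells. Lhx2 had a mean of 4.32, 3.44, 3.91 and 5.61 in the members, and its median member was at 0 on vehicle replicate 2 and at 7.82 on PRT4165 replicate 2. Cd34 had a mean of 1.68, 1.76, 1.28 and 2.61 in the members, and its median member was at 0 on every plate. Krt5 and Krt15, which helped choose the members, had a count in every member, while Lhx2 and Cd34 split the members into cells with and without a count.

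**Figure D1:**
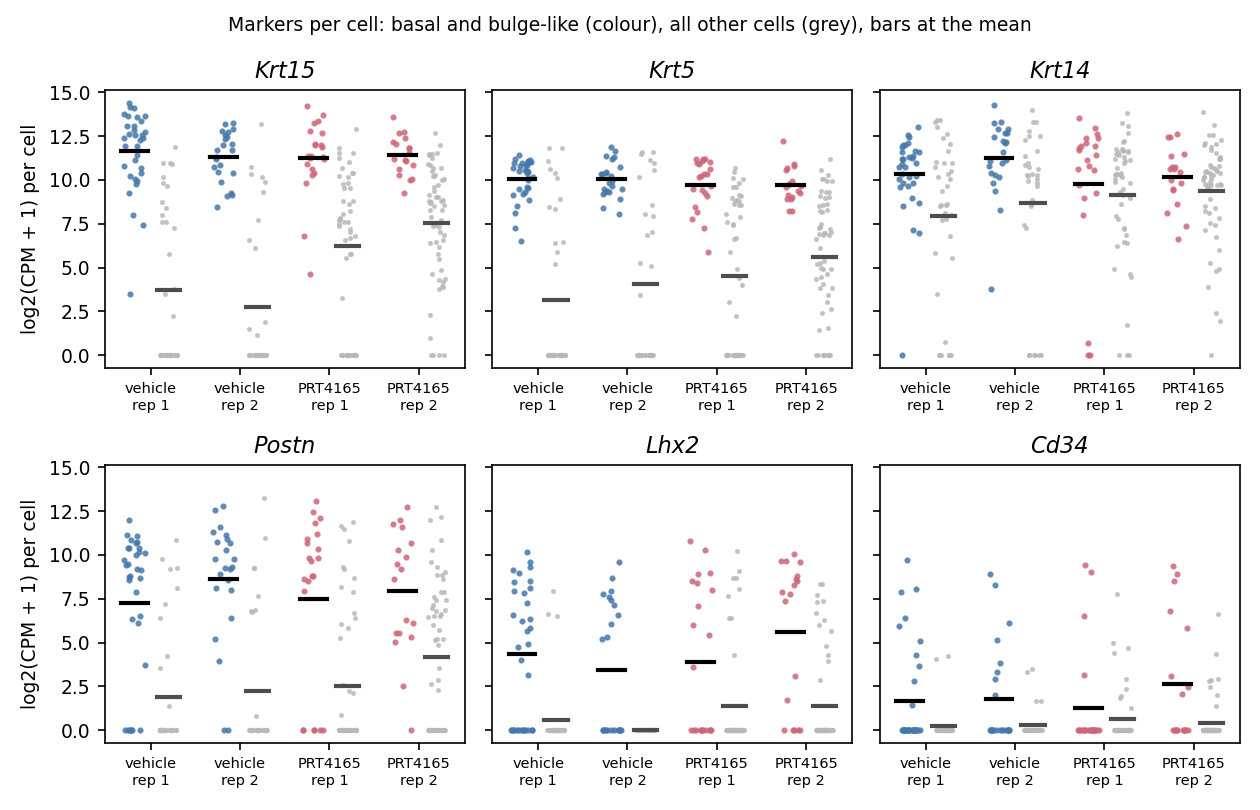
The 6 marker genes that defined the basal and bulge-like cells, 1 point a cell, as log2(CPM + 1) on the vertical axis for the 4 plates on the horizontal axis; coloured points are members, grey points all other kept cells, and bars mark means. Krt15 and Krt5 were present in all members, whereas 66 of 96 members had no Cd34 count, and grey Krt15 levels were higher on the PRT4165 plates.

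The edge of the class was soft. In the member closest to another list, the mean z-score was 0.327 on its own list and 0.326 on the next. In the closest cell outside, it was -0.278 on the basal and bulge list and -0.271 on the list that won. Of the 96 members, 16 lay within 0.25 of their next list, and 14 other cells lay within 0.25 of the basal and bulge list. Cycling genes were the next list in 41 members, sebaceous genes in 31 and suprabasal genes in 24. A cell with no count of a list scored -0.368 on the cycling, -0.640 on the sebaceous and -1.035 on the suprabasal list. The cycling list could thus come next in a member without a cycling count, so this order does not show which class was nearest. The score on their own list was negative in 2 members.

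The members carried few transcripts of the cycling list. None of its 6 genes (Mki67, Top2a, Birc5, Cdk1, Ccnb1 and Cenpf) had a count in 66 of 96 members, and 3 or more had one in 1 member. At least 3 of the 7 suprabasal and upper follicle genes (Krt1, Krt10, Krtdap, Sbsn, Krt79, Klk10 and Cst6) had a count in 56 members, and at least 3 of the 7 sebaceous genes in 14. Genes of the suprabasal list were thus detected in many members. The median number of them with a count was 3 in the members and 5 in the cells of that list. Those cells were chosen by these genes and were deeper, at a median of 504055 counts against 228709 in the members.

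Markers of other cell types that a sort of epidermis could carry along gave low sums in the members, apart from Pecam1 and the companion layer genes. These sums were not always lower than in the other kept cells. Summed over the members of a plate, the 6 fibroblast markers in the table reached 39.8 to 93.7 CPM on vehicle plates and 32.6 to 99.2 on PRT4165 plates, all 6 with a count. Of 10 immune markers, 3 were in the table and lay at 2.71 to 5.16 CPM on vehicle plates and at 0 to 0.14 on PRT4165 plates. Of 5 melanocyte markers in the table, Kit was at 0 and the sum was 13.8 to 63.7 CPM and 7.21 to 17.2 CPM on the vehicle and PRT4165 plates. Of 4 Merkel cell markers, Krt20 and Sox2 were at 0 and the sum was 9.50 to 12.5 CPM and 10.7 to 18.5 CPM. Hair shaft and inner root sheath markers lay at 4.42 to 14.9 CPM and 0.842 to 42.6 CPM, with Krt31 at 0. The endothelial sum, 771 to 1256 CPM and 313 to 1445 CPM, rested on Pecam1, whose mean level was between 9.19 and 10.02 in each of the 4 classes. The companion layer genes, Krt6a and Krt75 among them, reached 1007 to 1023 CPM and 233 to 891 CPM.

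Members were shallower than the cells around them. Their median total was 228709 counts, against 511547 in the other kept cells, with a range of 10182 to 3029822. On each plate the same held, with medians of 95990, 400357, 248760 and 428158 counts in the members of vehicle replicates 1 and 2 and PRT4165 replicates 1 and 2, against 213761, 677332, 499539 and 573307 in the others. The median share of mitochondrial counts in the members was 19.2%, 19.2%, 18.4% and 27.4%. With every cell thinned to 20000 counts, which left out 5 members, the median number of genes detected was 2191, 1891, 1988.5 and 2115.5 per member. The plate means were 2041 ± 212.1 genes for vehicle and 2052 ± 89.8 for PRT4165 (SD, n = 2 plates each), a difference of 11 genes with an exact two-sided permutation p of 1, where 2 against 2 plates cannot give less than 0.333. Without thinning the difference was 409 genes.

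The share of members differed between treatments by more than the spread between plates, in a design too small to test it below 0.333. The members were 33 of 70 cells on the plate of vehicle replicate 1 (47.1%, Wilson 95% interval 35.9 to 58.7), 23 of 55 on vehicle replicate 2 (41.8%, 29.7 to 54.97), 22 of 72 on PRT4165 replicate 1 (30.6%, 21.1 to 41.95) and 18 of 77 on PRT4165 replicate 2 (23.4%, 15.3 to 33.95). Both PRT4165 plates lay below both vehicle plates. The mean was 44.5% ± 3.77 for vehicle and 27.0% ± 5.08 for PRT4165 (SD, n = 2 plates each), 17.5 percentage points apart, with an exact two-sided permutation p of 0.333. The difference was -16.6 points within replicate 1 and -18.4 points within replicate 2. Over cells with at least 100000 counts the shares were 35.6%, 42.6%, 33.3% and 24.3% and the difference was -10.3 points. With every cell thinned to 20000 counts the shares were 43.3%, 41.8%, 31.3% and 29.3%. Shares of 1 plate sum to the whole, and the sebaceous share was 7.40% ± 2.39 for vehicle and 23.3% ± 9.34 for PRT4165 (SD, n = 2 plates each, exact permutation p = 0.333).

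**Figure D2:**
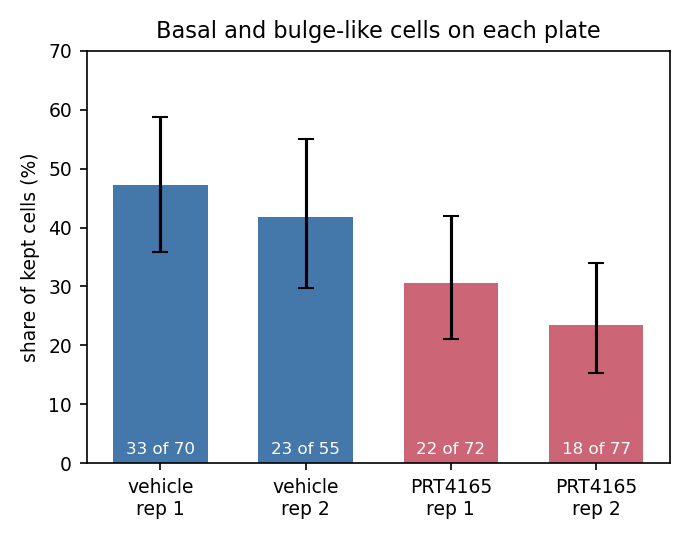
Share of kept cells that were basal and bulge-like on each plate, in percent, with Wilson 95% intervals that cover counting error only, for vehicle (blue) and PRT4165 (red). The vehicle plates were at 47.1% and 41.8% and the PRT4165 plates at 30.6% and 23.4%.

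Against the other cells of the same plates, the members were richest in anchorage genes. Among 9969 genes with a count in enough cells, 10.2% were higher in the members on all 4 plates and 18.6% were lower on all 4, and the median difference over all genes was -0.11 on the log2 scale. Of the 13 basal adhesion genes, 11 were higher on all 4 plates (Itga6, Itgb4, Itgb1, Itga2, Col17a1, Dst, Plec, Cd151, Lama3, Lamb3 and Lama5) and none was lower on all 4, with a median difference of 1.52. The other 2, Itga3 and Itgav, differed in sign between plates.

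Col17a1, the transmembrane collagen of the hemidesmosome, stood out among them. Its mean log2(CPM + 1) in the members was 7.08, 8.68, 8.96 and 8.17 on vehicle replicates 1 and 2 and PRT4165 replicates 1 and 2, against 2.995, 4.14, 4.07 and 3.82 in the other cells. The difference was 4.47 ± 0.33 (SD over 4 plates), with the members above the other cells on every plate. Itgb4, the integrin subunit that binds laminin-332 in the hemidesmosome, was 2.12 ± 0.37 higher, and its partner Itga6 was 1.36 ± 1.46 higher, with a difference of only 0.03 on PRT4165 replicate 1. The plakin Dst was 2.08 ± 1.06 higher and Plec, which links the plaque to keratin, 1.55 ± 0.41. The laminin chains Lama3 and Lamb3 were higher by 1.52 ± 0.78 and 1.99 ± 0.66 (SD over 4 plates). The integrin signal was shared with other classes. Itgb1 had a mean of 5.32 in cycling cells against 4.06 in the members, and Itga6 of 5.02 in sebaceous cells against 4.32. Over the 13 genes the median level was 2.77 in the members, 2.43 in cycling cells, 1.82 in sebaceous cells and 0.74 in suprabasal cells, so that the cycling cells were the class nearest to the members. Of these genes, 13 had a higher mean in the members than in suprabasal cells, 10 than in cycling cells and 11 than in sebaceous cells.

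Extracellular matrix genes were higher in the members than in the pooled other cells, but less so against single classes. Of 14 with enough counts that were no class marker, 9 were higher in the members on all 4 plates (Col4a2, Col7a1, Col17a1, Col18a1, Npnt, Tnc, Sparc, Thbs1 and Ccn2) and none was lower on all 4, with a median difference of 0.87. The median level over the 14 genes was 1.27 in the members, 1.296 in sebaceous cells, 1.03 in cycling cells and 0.15 in suprabasal cells. All 14 had a higher mean in the members than in suprabasal cells, but only 8 than in cycling cells and 8 than in sebaceous cells. Col7a1, which forms the anchoring fibrils of the basement membrane, was 1.49 ± 0.66 higher, Col18a1 2.88 ± 1.07 and the matricellular gene Sparc 3.16 ± 1.08 (SD over 4 plates). Tnc, with counts in 15.6% of members and 2.81% of other cells, was 0.90 ± 0.20 higher.

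Bulge genes outside the marker list were higher in part. Of 11 with enough counts, 7 were higher on all 4 plates (Tcf7l1, Lgr5, Tbx1, Dkk3, Sfrp1, Id2 and Ccn2) and 1, Foxc1, was lower on all 4, with a median difference of 1.09. Dkk3, a secreted protein of the Dickkopf family, had a mean of 4.12, 3.52, 4.62 and 5.64 in the members of the 4 plates against 0.53, 0.99, 1.10 and 1.06 in the other cells. It had counts in 64.6% of members and 20.2% of other cells. Sfrp1, a secreted Wnt antagonist, was 2.56 ± 0.98 higher (SD over 4 plates). Lgr5 and Tbx1 had counts in 21.9% and 26.04% of members, against 10.1% and 5.06% of other cells. Foxc1, a transcription factor that keeps bulge stem cells quiescent, was 1.94 ± 0.79 lower, with counts in 15.6% of members and 48.3% of other cells. Sox9 had counts in 78.1% of members and 71.9% of other cells, and Nfatc1 in 42.7% and 44.9%, and both differed in sign between plates. The bulge part of the name thus rested on some of the genes that mark that niche.

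Apart from Postn, no upper follicle or differentiation gene of the lists was higher in the members on all 4 plates. Postn is on the junctional zone and infundibulum list as well as among the markers that chose the members, and it was 5.11 ± 1.11 (SD over 4 plates) above the other cells. Of the 7 junctional zone and infundibulum genes that were no class marker, none was higher on all 4 plates and 3 were lower on all 4. These were Plet1, Gata6 and Defb6. Lrig1 itself had counts in 31.2% of members and 37.6% of other cells, with a difference of -0.31 ± 0.47 (SD over 4 plates) that was positive on 1 of 4 plates. Of 10 differentiation genes, none was higher and 5 were lower on all 4 plates (Calm4, Ivl, Tgm1, Tgm3 and Grhl3), with a median of -0.58. Ivl, a precursor of the cornified envelope, had counts in 4.17% of members and 31.5% of other cells. Of 10 proliferation genes that were no class marker, none was higher and the mitotic cyclins Ccna2 and Ccnb2 were lower on all 4. Over all genes, 10.2% were higher and 18.6% lower. Of 7 basal identity factors, Trp63 and Bcam were higher and Klf5 and Perp lower on all 4 plates. Trp63, the master regulator of stratified epithelia, was 2.08 ± 1.22 higher in the members.

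Signalling genes showed a mixed pattern. Over all genes, 10.2% were higher and 18.6% lower in the members on all 4 plates. In the BMP and TGF-beta list, 4 of 14 genes were higher on all 4 plates (Smad5, Id2, Id3 and Bmp2) and 1 lower (Bmpr2). In the Wnt list, 4 of 10 were higher (Tcf7l1, Tcf7l2, Dkk3 and Sfrp1) and 2 lower (Fzd6 and Wnt4). Id3, a target of BMP signals, was 2.06 ± 1.19 higher, with counts in 46.9% of members and 32.02% of other cells. Of 12 immediate early genes, 1 (Atf3) was higher on all 4 plates and none was lower. Of 16 subunits of Polycomb repressive complex 1, 3 were higher (Pcgf1, Pcgf2 and Cbx6) and 2 lower (Pcgf3 and Kdm2b). Beside the shares over all genes, such small counts are not read as a trait of the class. Of 3 wound keratins with enough counts, Krt6a was higher on all 4 plates.

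Of 4 genes of the Polycomb-repressed regulators with enough counts, Hoxc13 and Krt8 were higher and Hoxa9 and Pax6 lower on all 4 plates. Pecam1 from the endothelial list, Krt8 from the Merkel list, Krt6a from the companion layer list and Dcn from the fibroblast list were higher on all 4 plates, and the 1 immune and 2 melanocyte genes with enough counts were mixed. No hair shaft gene reached enough cells. With at most 4 genes each, and 10.2% of all genes higher and 18.6% lower, these lists are not read as sets.

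**Figure D3:**
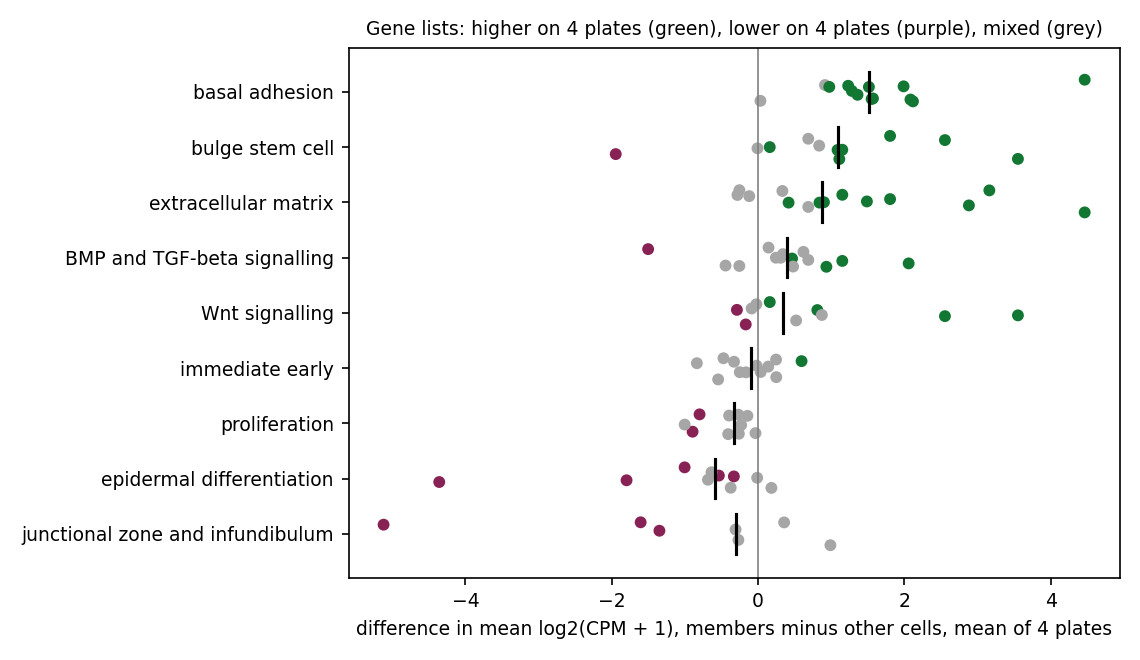
Difference in mean log2(CPM + 1) between basal and bulge-like cells and all other kept cells, averaged over 4 plates, for single genes (points) of 9 lists, without the 26 genes that defined the classes; black bars are list medians. Basal adhesion has 11 of 13 genes higher on all 4 plates (green) and differentiation has 5 of 10 lower on all 4 (purple), with genes of mixed sign in grey.

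Outside the 26 class markers, the genes most raised in the members were Crip1, Col17a1, Slc6a6, Ftl1, Fth1, S100a6, Cxcl14, Cav1, Dkk3, Sparc, Shisa2, Tgfbi, Cadm1, Col18a1 and Igfbp7, in falling order from 5.14 to 2.83. Crip1, a small LIM domain protein, had a mean of 7.55, 8.75, 5.21 and 8.22 in the members of the 4 plates and of 1.64, 2.92, 1.60 and 2.999 in the other cells. These plate means did not overlap between members and other cells, which says nothing of single cells. The same sign on all 4 plates was required of the genes named here. Slc6a6, the taurine transporter, differed by 4.42 ± 0.76 and had counts in 81.2% of members and 44.9% of other cells. Cxcl14, an epithelial chemokine, differed by 3.75 ± 1.41, with its lowest member mean, 2.80, on PRT4165 replicate 1. Cav1, the coat protein of caveolae, had a mean of 6.92 in the members and 6.61 in cycling cells, so the levels were close in these classes. Cadm1, an adhesion molecule of the immunoglobulin family, and Shisa2 were nearly absent elsewhere, with counts in 47.9% and 45.8% of members and in 10.7% and 10.1% of other cells. Ftl1 and Fth1, the 2 ferritin chains, differed by 4.29 ± 0.59 and 4.26 ± 1.05 (SD over 4 plates). The ferritin genes have near-identical processed copies in the genome, so their assignment is uncertain, and the same holds for the keratins that share sequence with Krt14.

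The genes most reduced in the members were led by those of the suprabasal cells. Defb6, Sdr16c6, Calm4, Ly6g6c, Sprr1a, Car13, Klk7, Ptgr1, Rab25 and Dsg1a were lower by 5.12 to 3.06. Defb6, a beta-defensin, had a mean of 2.63, 3.29, 2.94 and 3.61 in the members and of 9.77, 7.72, 7.70 and 7.76 in the other cells. Its mean was 12.80 in suprabasal and upper follicle cells but 2.61 in cycling and 3.27 in sebaceous cells, so the members were near the latter classes. Dsg1a, a desmosomal cadherin of the upper layers, likewise had a mean of 9.40 in suprabasal cells, 3.25 in the members, 3.17 in cycling and 2.10 in sebaceous cells. Sdr16c6, a short-chain dehydrogenase, differed from both suprabasal (7.02) and sebaceous cells (4.01), at 0.50 in the members.

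PRT4165 against vehicle within the members asked whether inhibition of the Polycomb complex changed these cells. Counts of the members were summed per plate, which gave 4 sums of 4.42e+06 to 8.14e+06 counts, and tested with edgeR. No gene passed an adjusted p of 0.05 among 10170 tested (0% called), with the smallest adjusted p at 0.892 in the edgeR quasi-likelihood test. At an unadjusted p under 0.05 there were 532 genes (5.23%), 289 higher and 243 lower with PRT4165. DESeq2 on the same sums called 239 genes (2.49% of 9604), 120 higher and 119 lower. Scaled by TMM, 16% of genes had both PRT4165 plates above both vehicle plates and 17.5% had both below. Without TMM these shares were 11.8% and 22.8%. The biological coefficient of variation was 98.9%. Single cells weighed heavily in the sums. In the median tested gene, 1 cell gave 50%, 57.2%, 58.1% and 59.5% of a plate's counts, and a count was present in 18.2% to 27.8% of a plate's members.

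The marker genes of the class are listed without a test, since they chose the members. Krt5 stood at 1141, 1062, 1164 and 1114 TMM-scaled CPM in the summed members of vehicle replicates 1 and 2 and PRT4165 replicates 1 and 2, and Krt15 at 4680, 2934, 4222 and 3649. These 2 keratins overlapped between treatments, although without TMM both PRT4165 plates were below both vehicle plates for Krt5. Krt14 stood at 2037, 3658, 2020 and 1791 CPM, so that both PRT4165 plates were just below both vehicle plates. Postn, Lhx2 and Cd34 had both PRT4165 plates above both vehicle plates, but without TMM the treatments overlapped for Postn and Cd34. Postn stood at 749, 1481, 2336 and 1730 CPM and Lhx2 at 170, 85.2, 597 and 328.7. For Lhx2, 1 cell gave 74.6% of the counts on PRT4165 replicate 1, so its order there leaned on that cell. Cd34 stood at 25.8, 62.8, 74.1 and 110.5 CPM, with 1 cell giving 88.8% of it on PRT4165 replicate 1. The share of members with a count differed in no such way, with Lhx2 in 60.6%, 47.8%, 50% and 72.2% of the members and Cd34 in 30.3%, 34.8%, 18.2% and 44.4%.

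The suprabasal keratins Krt1 and Krt10, also genes of the class lists, were higher in the summed members of both PRT4165 plates. Krt1 went from no count to some, whereas Krt10 already had counts in 21 of 56 vehicle members. Krt1, the first keratin of the suprabasal layers, had no count in any of the 56 vehicle members and a count in 7 of 40 PRT4165 members (17.5%). The rule that set the class used Krt1, and the 56 cells came from 2 plates, so no bound on the vehicle share is given. Depth also differed between plates. The median member of vehicle replicate 1 held 95990 counts, against 248760 in PRT4165 replicate 1. Within replicate 2 the median was 400357 for vehicle members and 428158 for PRT4165 members. Whether depth changed the number of members with a Krt1 count was not tested. The level of Krt1 was 0, 0, 82.7 and 224 TMM-scaled CPM on the 4 plates. On the lower of the PRT4165 plates, in CPM without TMM, the level was 310.4-fold a floor of 3 counts over the summed vehicle members. Counts here are reads and not molecules, so that floor sets no lower bound on the fold. Single cells gave 99.4% and 83.7% of the counts on the 2 PRT4165 plates. None of the 7 cells lay within 0.25 of its next list, and for 4 of them that list was the suprabasal one. In the other cells Krt1 had counts in 27.5% of vehicle and 24.8% of PRT4165 cells. Its partner Krt10 stood at 46.9, 60.4, 415 and 1028 CPM, with 80.3% and 64.8% of the PRT4165 counts from 1 cell, and had counts in 37.5% of vehicle and 47.5% of PRT4165 members. Both keratins stayed in the fit over all genes, but the rule that set the class used them, so their values are a description and their p-values are not given.

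Outside the class lists, the 5 genes with the smallest p among those higher on both PRT4165 plates were Erp44, Fam120a, Zfp429, Gm2237 and Morc4, each with an adjusted p of 0.892 in edgeR. Erp44, a chaperone of the early secretory pathway, stood at 20.1 and 23.6 CPM on the vehicle plates and at 1570 and 247 on the PRT4165 plates. A single cell gave 81.5% and 89.9% of its PRT4165 counts, and it had counts in 8, 4, 7 and 7 members of the 4 plates. Fam120a stood at 56.2, 55.8, 1331 and 445 CPM, with a log2 change of 3.99 and an SE of 0.79, and was the most broadly detected, in 11, 14, 16 and 14 members. On PRT4165 replicates 1 and 2, however, 1 cell gave 77.2% and 50.6% of the Fam120a counts. Gm2237 had no vehicle count and stood at 33.7 and 64.5 CPM with PRT4165, from 2 and 3 cells. Its lower PRT4165 plate was 126.4-fold the same floor. Zfp429 stood at 0.403, 0, 106.5 and 115 CPM, from 2 and 1 cells with PRT4165. Morc4 stood at 0.201, 0.229, 33.998 and 82.4 CPM, from 3 and 9 cells with PRT4165, where 1 cell gave 98.2% and 42.8% of the counts.

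The 5 lower genes outside the class lists were Krt36, Sclt1, Plekhb2, Zhx1 and Slc50a1, each again with an adjusted p of 0.892 in edgeR. Krt36, a keratin of hair and tongue, stood at 18.5 and 416 CPM on the vehicle plates and at 0 on both PRT4165 plates. The lower vehicle plate, in CPM without TMM, was 82.5-fold a floor of 3 counts over the summed PRT4165 members, which again is no bound. All counts of Krt36 on vehicle replicate 2 came from 1 cell. Plekhb2 stood at 42.9, 33.5, 0 and 0 CPM, 142.6-fold the floor by the same measure, and 1 cell gave 98.6% and 97.6% of its counts on the vehicle plates. Sclt1 stood at 40.5, 324, 0.313 and 1.16 CPM. Zhx1, a zinc-finger and homeobox repressor, stood at 1269, 277, 13.9 and 45.7 CPM, and 1 cell gave 96.0% of its counts on vehicle replicate 1. Slc50a1, a sugar transporter, stood at 588, 232, 21.5 and 36.4 CPM, with 92.9% from 1 cell on vehicle replicate 1.

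**Figure D4:**
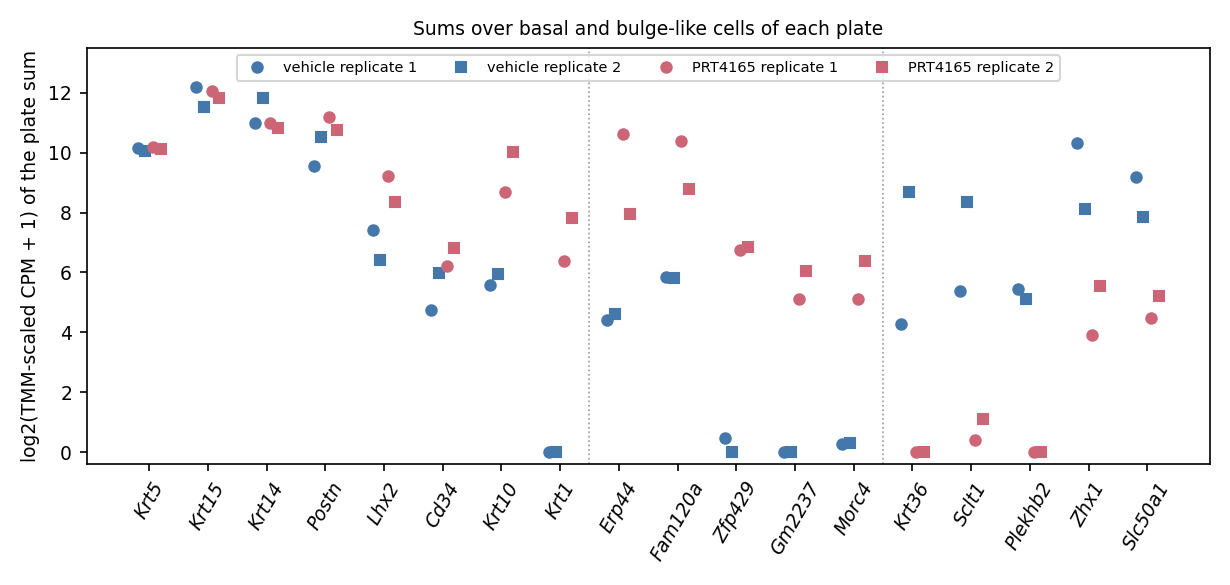
Counts summed over the basal and bulge-like cells of each plate, as log2(TMM-scaled CPM + 1), for 8 genes of the class lists (left), and, outside the class lists, the 5 genes of smallest p that were higher (middle) and the 5 that were lower (right) with PRT4165 (red) than vehicle (blue). Krt5 was near 10.1 on all 4 plates, Krt1 was at 0 on both vehicle plates, and none of the genes in the middle or right part passed the adjusted threshold.

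The targets of PRT4165 were low in the members. Rnf2, the catalytic ubiquitin ligase of the complex, stood at 66.8, 36.2, 8.46 and 10.4 CPM on the 4 plates, from 7, 4, 3 and 6 cells. Both PRT4165 plates were lower, with a log2 change of -2.44, an SE of 1.23 and an edgeR adjusted p of 0.973. Ring1, its paralogue, was too low to be tested and stood at 1.58, 5.16, 0.421 and 0.210 CPM without TMM, from 3, 7, 1 and 1 cells. PRT4165 acts on the enzymes, so their mRNA is no check of the treatment. Lrig1 stood at 15.9, 64.8, 15.4 and 25.3 CPM and overlapped between treatments.

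No gene list had a member past the threshold in the members of the class. Of the 13 basal adhesion genes tested, 1 (Cd151) had both PRT4165 plates above and 1 (Lama5) both below, and 11 overlapped, with a median log2 change of -0.41 against 0.02 over all genes. Col17a1 stood at 471, 749, 825 and 449 CPM and Itgb4 at 90.8, 63.1, 39.01 and 70.3, and both overlapped. Without TMM, none of the 13 was above and 5 were below on both PRT4165 plates (Itga6, Itgb4, Dst, Plec and Lama5), while Cd151 overlapped. On that scale 22.8% of all genes were below and 11.8% above. Of 13 bulge genes, 3 were above and 1 below, with a median of 0.14, and without TMM 3 were above and 2 below (Sox9 and Lgr5). Dkk3 was above on both PRT4165 plates, at 84.6, 89.6, 258 and 227 CPM, with a log2 change of 1.48, an SE of 0.78 and an edgeR adjusted p of 0.986. Sox9 was the bulge gene below, at 140.9, 121.6, 29.3 and 107.5 CPM. Over all genes tested, 16% were above and 17.5% below.

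Of 8 proliferation genes tested, 3 were above on both PRT4165 plates and none below, with a median of 1.38. Without TMM 2 were above (Mcm5 and Mcm6). Over all genes 16% were above and 17.5% below, with a median of 0.02, so counts in 8 genes are not read as a result about the list. Pcna, the sliding clamp of DNA replication, stood at 488, 248.8, 1616 and 601 CPM, with 75.8% of PRT4165 replicate 1 from 1 cell, and overlapped between treatments without TMM. Mcm5 and Mcm6, subunits of the replicative helicase, stood at 1.61, 5.26, 25.4 and 34.1 CPM and at 52.3, 34.5, 124 and 73.1 CPM. The members of PRT4165 replicate 1 held 1 cell with all its Mcm5 counts.

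The counts of the lists below stand beside 16% of all genes above and 17.5% below, and are not read as results about the lists. Of 14 BMP and TGF-beta genes, 4 were above and 1 below. Id4, an inhibitor of differentiation that BMP signals induce, was the one below, at 54.4, 161.1, 2.98 and 6.03 CPM, with an edgeR adjusted p of 0.892. Of 12 Wnt genes, 3 were above and 1 below, and of 14 matrix genes 1 was above and none below. Of 7 junctional zone and infundibulum genes, 1 was above (Ly6a) and 1 below (Gata6). Of 8 differentiation genes, 3 were above and 2 below, of 12 immediate early genes 2 and 1, of 16 subunits of the complex 3 and 3, and of 7 basal identity factors and 3 wound keratins none either way. Without TMM, Tfap2a and Klf5 of the identity factors and the wound keratin Krt6a were below on both PRT4165 plates. Also without TMM, 1 BMP and TGF-beta gene was above and 3 were below (Smad1, Id4 and Tgfbr1), where 11.8% of all genes were above and 22.8% below. On that scale the matrix genes had none above and 1 below (Npnt), the differentiation genes 1 and 3, the Wnt genes 2 and 1 and the immediate early genes 1 and 1. Of 3 Polycomb-repressed regulators tested, 1 (Krt8, also the 1 Merkel gene tested) was above, and overlapped without TMM. Of the markers of other cell types, Dcn, Mitf, Pecam1 and the 3 companion layer genes overlapped, and of 3 hair shaft genes 1 was below. Without TMM, Mitf and the companion layer gene Krt6a were below.

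The effect of PRT4165 in the members was then compared with its effect in all other cells of the same plates. The per-plate differences of log2 CPM gave no gene past an adjusted p of 0.05 among 12513 tested in limma (0% called), with 638 (5.1%) at an unadjusted p under 0.05. With the replicate number as a block the count was 1, which was Krt1. The rule used Krt1 to choose the cells, so this is not read as a result. The 3 genes of smallest p outside the lists were Lrat, Krt36 and Tbccd1, each with a limma adjusted p of 0.924. Lrat, which esterifies retinol, stood at 0, 0, 5.01 and 138.8 CPM in the members and at 37.4, 21.8, 0 and 3.47 CPM without TMM in the other cells. Tbccd1 stood at 38.2, 35.6, 0.313 and 0.232 CPM in the members and at 1.22, 6.39, 34.7 and 21.6 CPM without TMM in the other cells. For both genes the order of the treatments in the members was opposite to that in the other cells, and in PRT4165 replicate 2 a single cell gave 94.0% of the Lrat counts of the members.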

How the data were processed

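Single cells were profiled by full-length Smart-seq2 on 4 plates. The authors quantified reads with Salmon 0.13.1 (GRCm38, per the submitters' processing notes, which also name R 4.0.3 and Seurat) and deposited estimated counts per gene and cell, without molecular identifiers and not scaled; 18.3% of values above 0 were not whole. Of 289 cells, 15 with over 50% mitochondrial counts were left out. Members, gene lists and tests were chosen with earlier results of these data known. Intervals cover counting error only. Floors of 3 counts are reference levels in reads and bound no level.

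Member counts without the 13 mitochondrial genes were summed per plate, rounded and tested with edgeR 4.0.16 (filterByExpr, TMM, quasi-likelihood, Benjamini-Hochberg). Per-plate differences between members and other cells were tested with limma 3.58.1 (trend, prior count 2), shares by exact permutation over plates (scipy 1.17.1). Some genes of the lists are not reported here and were left out of the list counts. A list gene needed a count in 10% of members or of other cells. DESeq2 1.42.0 and other filters, scalings and left-out plates were alternatives. The steps were checked on simulated plate sums. These varied far less between plates than the fitted coefficient of variation of 98.9% and held no single cells that dominate a sum. The check therefore does not show what the tests can detect in these data. Genes named were the 6 markers, the 15 genes most raised and 10 most reduced in members (same sign on 4 plates, a count in 25% of the cells where they were higher), the 5 genes of smallest p in each direction with plates that did not overlap and the 3 of smallest p for the difference of effects (both outside the class lists, whose genes the rule used), up to 4 per list, Ring1, Rnf2 and Lrig1. Krt1 and Krt10 and other list genes were added after their values were seen. The labels tie replicate numbers to a batch, which pairs plates, although deviations of same-numbered plates hardly correlated (r = 0.0211 over 7025 genes).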

Additional observations from a re-analysis of the deposited data

How the results depend on the processing

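With 2 plates a treatment, 96 members and single cells that give most of the plate sum of many genes, the treatment test can show little. The lower share of members with PRT4165 kept its direction under all settings, at -10.3 to -17.4 points under other filters, scalings and lists and at -21.1 to -13.9 points without 1 plate. The difference in genes detected ranged from -139 to about 1.6e+02 genes without 1 plate, and was -139 without vehicle replicate 2 and -52.5 without PRT4165 replicate 2. The edgeR count of 0 genes became 124 with no filter on low counts and 239 in DESeq2, and ranged from 0 to 45 without 1 plate (45 without vehicle replicate 1, 26 without vehicle replicate 2). Other filters, size factors and sums gave 0, as did the sums with mitochondrial genes kept, an alternative chosen after seeing the data. The replicate block left the share difference at -17.5 points and the edgeR count at 0, moved the difference of effects to 1 gene, Krt1, which chose the members and is no result, and changed no other call. The cause was not tested. The log2 change of Lrig1 ranged from -1.69 to 0.37 without 1 plate and reversed (0.37) without vehicle replicate 2. Over 15 single-gene results, 2 of them on Krt36, 26 values under other settings passed the threshold and 1 reversed.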
